A study of Mus musculus with 23 samples.

Results

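Oxidative phosphorylation is described here through 71 nuclear genes for subunits of the respiratory complexes in primary mouse embryonic fibroblasts. The genes were all those whose symbol starts with Nduf, Uqcr, Cox4 to Cox8 or Atp5, or is Sdha, Sdhb, Sdhc or Sdhd, among 8251 genes to which the array's annotation gives a probe set with a single symbol. They had 98 such probe sets, 20 genes had several, and the brightest over all 23 arrays stood for each gene. There were 29 subunit genes of complex I, 2 genes for its assembly factors (Ndufaf1 and Ndufaf4), 4 of complex II, 7 of complex III, 15 of complex IV and 14 of complex V. All cells were labelled C57/BLACK6, ATF1 -/+, and came from e14.5 embryos. Cultures were starved for 48 hours in 1% serum. They then spent 2 hours with 200 µM 4-thiouridine and 1 µCi of 3H-cytidine in either 1% serum (starved) or 10% serum (treated). Cells build 4-thiouridine, a uridine analogue, into the RNA they make, and RNA captured by its thiol group on an organomercurial matrix is called newly transcribed here. The other kinds were total RNA and amplified total RNA, which the titles alone tell apart, since the labelling protocol of every sample mentions amplification. The 6 groups, each kind of RNA in starved and in treated cells, held 4 arrays each except amplified starved with 3. Titles call the arrays of a group biological replicates, and the p-values measure the spread between them. Every group therefore carried the heterozygous ATF1 allele, the starvation and the 2 labels.

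The respiratory chain of the inner mitochondrial membrane passes electrons from NADH (complex I) and succinate (complex II) through complex III to oxygen at complex IV. Complexes I, III and IV pump protons, and complex V, the ATP synthase, uses the proton gradient to make ATP. All complexes but II also hold subunits encoded by mitochondrial DNA, so cells build them from the products of both genomes, and messenger RNAs of the nuclear subunits are known as long-lived, abundant housekeeping transcripts.

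The promoters of several of these genes carry binding motifs of factors known for driving nuclear genes of mitochondria, and several share their promoter with a divergent neighbour, which gives 2 transcripts from nearby starts to compare. Windows of 250 bases before to 50 after the start were taken from RefSeq promoters of build GRCm38.p6, which matched 58 of the 71 genes with 63 windows. No window was used for Atp5a1, Atp5mpl, Cox4i1, Cox6a2, Cox6c, Cox8c, Ndufa2, Ndufb9, Ndufs1, Sdhc, Uqcrb, Uqcrc2 and Uqcrq. The NRF1 motif CGCATGCG, a palindrome, was in 9 of the 63 windows (14.3%), against 1.87% of 32851 windows of the same length. The ETS motif CCGGAAG, searched on both strands (CTTCCGG), was in 16 (25.4%), against 8.86%. The YY1 motif AAGATGGCG, on both strands, was in 5 (7.94%), against 1.4%. The YY1 motif begins with the last 3 letters of the ETS motif, so both can overlap. A match is a description of the window, not a site shown to be bound. The stretches in the following lines are given 5′ to 3′ in the direction of the named gene, with motif letters in capitals. First come stretches between the starts of a divergent pair, ending at the base before the gene's start, and then stretches upstream of NRF1-motif genes.
Atp5j (with Gabpa), chr16:84834977-84835123, minus strand: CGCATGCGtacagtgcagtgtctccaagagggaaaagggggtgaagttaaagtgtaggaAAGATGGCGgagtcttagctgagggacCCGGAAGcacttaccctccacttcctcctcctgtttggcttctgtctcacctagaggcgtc
Sdhd (with Timm8b), chr9:50603850-50603900, minus strand: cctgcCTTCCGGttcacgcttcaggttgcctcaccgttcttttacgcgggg
Atp5c1 (with Kin), chr2:10080511-10080611, minus strand: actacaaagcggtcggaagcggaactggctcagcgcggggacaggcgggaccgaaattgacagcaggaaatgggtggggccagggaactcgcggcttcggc
Atp5pb (with Wdr77), chr3:105959264-105959497, minus strand: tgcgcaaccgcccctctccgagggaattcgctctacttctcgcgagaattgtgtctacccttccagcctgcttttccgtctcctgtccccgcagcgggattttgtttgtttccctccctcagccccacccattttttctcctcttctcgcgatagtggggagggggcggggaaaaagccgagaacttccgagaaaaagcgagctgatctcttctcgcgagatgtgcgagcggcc
Ndufb3 (with Fam126b), chr1:58586334-58586396, plus strand: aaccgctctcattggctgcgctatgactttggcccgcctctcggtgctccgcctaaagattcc
Atp5g2, chr15:102671048-102671147, minus strand: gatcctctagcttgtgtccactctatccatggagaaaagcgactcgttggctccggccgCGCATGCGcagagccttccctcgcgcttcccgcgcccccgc
Atp5k, chr5:108434400-108434499, minus strand: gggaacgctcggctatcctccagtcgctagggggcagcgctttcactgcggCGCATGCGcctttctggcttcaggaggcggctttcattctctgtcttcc
Ndufa8, chr2:36049339-36049438, minus strand: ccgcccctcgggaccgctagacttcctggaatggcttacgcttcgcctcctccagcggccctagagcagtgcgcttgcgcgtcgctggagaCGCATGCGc
Ndufaf4, chr4:24897833-24898082, plus strand: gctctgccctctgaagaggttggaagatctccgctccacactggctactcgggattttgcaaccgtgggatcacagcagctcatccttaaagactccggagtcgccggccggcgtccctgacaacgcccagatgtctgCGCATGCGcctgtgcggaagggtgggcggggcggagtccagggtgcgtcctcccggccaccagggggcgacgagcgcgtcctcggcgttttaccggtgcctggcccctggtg
The Atp5j stretch is shown because it holds all 3 motifs within 147 bases. The Sdhd, Atp5c1, Atp5pb and Ndufb3 stretches are shown because the genes on their 2 sides are compared below. Those of Atp5g2, Atp5k and Ndufa8 have an NRF1 motif within 49 bases of the start, and Ndufaf4 has it 112 bases before the start.

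The deposited values were linear intensities. Their median per array ran from 7.3 (amplified starved array 1, with 67.5% of values below 16) to 75.2 (amplified treated array 4). It ran from 24.2 to 72.05 on newly transcribed arrays and from 20 to 54.2 on total RNA arrays. Arrays were therefore brought to the same distribution by quantile normalization, and a level below is the log2 of that value plus 16. On this scale the changes of dim probe sets are understated. Folds below are ratios of values with the 16 added, so the same limit applies to them. For the GAPDH control, the log2 level of the 3′ probe set minus that of the 5′ probe set was 2.16 ± 0.65 on newly transcribed arrays (SD, n = 8), 1.55 ± 0.60 on arrays of amplified RNA (n = 7) and -0.20 ± 0.11 on those of total RNA (n = 8). For the actin control it was 2.37 ± 0.55, 2.27 ± 0.44 and 0.35 ± 0.17 in the same order. By whole profile, the arrays of newly transcribed and amplified RNA formed 2 clusters. In cluster 1 were, for newly transcribed RNA, the arrays numbered 1 and 4 in either serum condition, and for amplified RNA the starved arrays 1 and 3 and the treated arrays 1 and 4. In cluster 2 were the others. Of 14 fibroblast markers, 9 had an intensity over 1000 in some group. Their sum was 9383 to 16326 per newly transcribed array, 23017 to 31389 per total RNA array and 20260 to 25712 per amplified array. Of 12 macrophage markers, 4 passed 1000, with sums of 2342 to 7632, 3901 to 9842 and 4870 to 11175 in the same order. All markers of endothelium (8), brown fat (4) and red cells (3) were below 100 in all 6 groups, as were 5 of 6 epithelial, 11 of 13 muscle and 5 of 7 neural and glial markers. Of the neural and glial markers 1 passed 1000 in some group. The part of the 3′ to 5′ difference and of the markers of other cell types in the results below was not tested.

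Transcripts of the respiratory complexes were less represented in newly transcribed RNA than in amplified total RNA. Of the 71 genes, 48 were lower (67.6%) and 2 were higher, Ndufaf4 and Atp5pb, at an adjusted p below 0.05 (limma, Benjamini-Hochberg over all 12422 probe sets). Among all probe sets 8.55% were lower and 7.84% higher. The difference was negative for 62 genes, and its median over the 71 was -1.18 (log2), against -0.01 over all probe sets. In 34 genes (47.9%) the 8 newly transcribed and 7 amplified arrays did not overlap at all, against 5.53% of all probe sets. Because these are relative levels on arrays scaled to each other, a lower value means a smaller share of that RNA. In bulk samples, fewer cells of a type and less RNA per cell cannot be told apart.

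The result held for genes with signal. Of the 58 genes at or above the median level of all probe sets (5.91), 46 were lower and 1 was higher, with a median of -1.45, while 14.4% of all genes at or above that level, by their brightest probe set, were lower. Of the 13 below it, 2 were lower (Atp5k and Cox6a2) and 1 was higher (Atp5pb), with a median of -0.04. Within cluster 1, 33 of the 71 genes were lower, against 3.91% of all probe sets, and the median was -1.29. Within cluster 2, 51 were lower, against 15.3% of all probe sets, and the median was -1.31. With values as deposited, without normalization, 1 gene was lower and 0 higher, while 68 of all probe sets were higher and 10 lower, where normalized 974 were higher and 1062 lower. The median of the 71 genes was then -0.76 against 0.14 over all probe sets, and 56 of the 71 differences were negative.

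**Figure D1:**
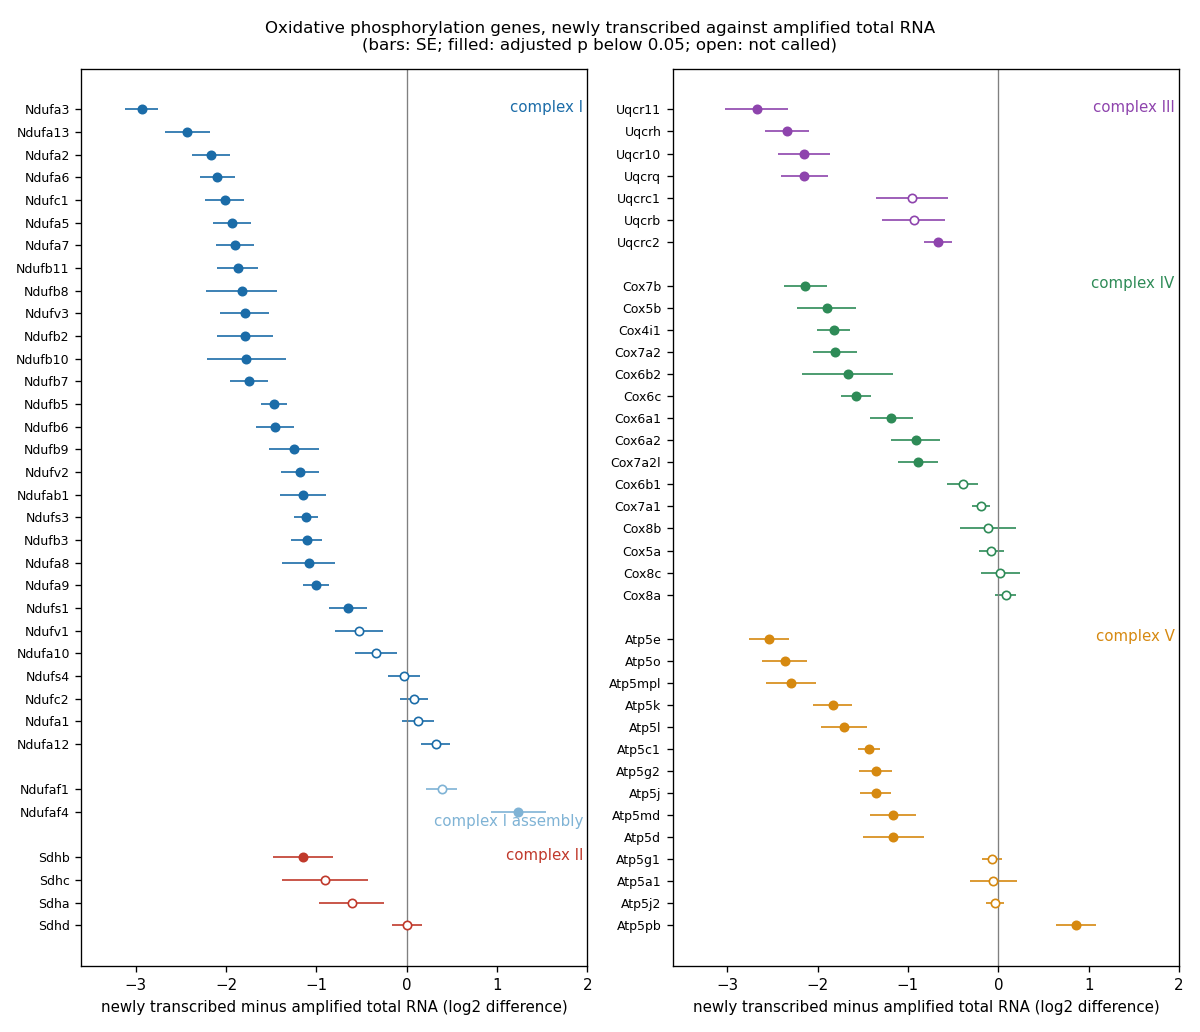
Newly transcribed minus amplified total RNA (log2 difference, horizontal axis) for each of the 71 genes, ordered within each complex. Points are fitted differences over 15 arrays with their SE, filled where the adjusted p is below 0.05; 48 filled points lie left of 0, and Ndufaf4 and Atp5pb lie right of it.

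Complex I, the NADH dehydrogenase, had 23 of 29 subunit genes lower and 0 higher, with a median difference of -1.46. All 25 of its genes at or above the median level had a negative difference, and 23 of those were lower. The most negative difference was that of Ndufa3, an accessory subunit of the membrane arm. Its log2 levels in newly transcribed RNA were 8.02, 7.61, 7.34 and 8.55 in starved and 8.42, 7.84, 8.02 and 8.12 in treated cells. In amplified total RNA they were 11.27, 10.97 and 10.69 in starved and 10.91, 11.07, 10.99 and 10.51 in treated cells, and in total RNA 10.13, 10.00, 10.39 and 10.25 in starved and 9.94, 10.12, 9.98 and 10.01 in treated cells. Every newly transcribed array was thus below every array of the other kinds. Ndufa3 was 7.64-fold lower in newly transcribed than in amplified total RNA, a difference of -2.93 ± 0.18 (SE, adjusted p = 1.24e-06), and its other probe set, of lower signal, differed by -1.32. Ndufa13, an accessory subunit also known as GRIM-19, differed by -2.43 ± 0.25 (adjusted p = 3.55e-05), and Ndufa2 by -2.17 ± 0.21 (adjusted p = 2.44e-05).

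The other accessory subunits of complex I named by the rule ran from -2.10 for Ndufa6 to -1.46 for Ndufb6, with Ndufc1 at -2.02, Ndufa5 at -1.93, Ndufa7 at -1.90, Ndufb11 at -1.87, Ndufb8 at -1.83, Ndufv3 at -1.79, Ndufb2 at -1.79, Ndufb10 at -1.78, Ndufb7 at -1.75 and Ndufb5 at -1.47, all called. Other probe sets of these genes gave -1.21, -0.15 and 0.07 for Ndufb2, -0.52 for Ndufb6, -0.06 for Ndufb10 and less than 0.01 in size for Ndufb7, and of these only the first, with a level of 8.5, was above the median level. The peripheral arm of the complex holds the catalytic core, where NADH is oxidised and electrons pass along iron-sulfur clusters. The measured core genes were picked out here after their values were seen. Ndufs3 differed by -1.11 ± 0.14, Ndufv2 by -1.18 ± 0.21 and Ndufs1 by -0.65 ± 0.21, all called. The adjusted p of Ndufs1 was 0.0499, and its call was lost in 12 of 15 fits that left out an array, with -0.56 at an adjusted p of 0.121 without amplified starved array 3. The other probe set of Ndufv2, at a level of 6.4, differed by -0.67. Ndufv1, which binds the flavin that accepts electrons from NADH, was not called, at -0.52 ± 0.27 (adjusted p = 0.223). Levels of Ndufv1 were 9.24, 10.04, 10.22 and 8.87 in starved and 9.09, 9.76, 9.63 and 8.71 in treated cells in newly transcribed RNA. They were 9.51, 10.27 and 10.07 in starved and 9.19, 10.47, 10.19 and 10.08 in treated cells in amplified total RNA and 10.60, 10.53, 10.41 and 10.42 in starved and 10.57, 10.29, 10.59 and 10.33 in treated cells in total RNA. Newly transcribed and amplified arrays overlapped, while all newly transcribed arrays were below all total RNA arrays. Among the subunits of complex I, the most positive difference was that of Ndufa12, at 0.32 ± 0.16 (adjusted p = 0.215).

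The assembly factors of complex I, which help build the complex but are not part of it, had positive differences. Levels of Ndufaf4 in newly transcribed RNA were 7.42, 6.81, 6.54 and 7.10 in starved and 7.62, 6.61, 6.16 and 7.92 in treated cells. In amplified total RNA they were 5.39, 5.44 and 6.49 in starved and 5.67, 5.61, 5.32 and 6.63 in treated cells, and in total RNA 5.39, 5.13, 5.26 and 5.16 in starved and 5.36, 5.82, 5.40 and 5.39 in treated cells. The newly transcribed arrays lay above all total RNA arrays and overlapped the amplified ones only through amplified starved array 3 and amplified treated array 4. Ndufaf4 was higher in newly transcribed than in amplified total RNA by 1.23 ± 0.30 (adjusted p = 0.0131) and than in total RNA by 1.66 ± 0.22 (adjusted p = 3.48e-05). Ndufaf1 was higher than in total RNA by 0.99 ± 0.11 (adjusted p = 8.15e-06), and its difference from amplified total RNA was 0.39 ± 0.17 (adjusted p = 0.165). Its other probe set gave 0.39 and 0.57, and the other probe set of Ndufaf4, of low signal, gave -0.09 and 0.02.

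Complex II, succinate dehydrogenase, is the complex without subunits from mitochondrial DNA and is shared with the citric acid cycle. It had 1 of 4 genes lower than in amplified total RNA, with a median difference of -0.75, and 4 of 4 lower than in total RNA, with a median of -0.86. Sdhb, the iron-sulfur subunit, had levels of 7.53, 8.61, 8.84 and 8.21 in starved and 7.30, 9.14, 8.88 and 7.80 in treated cells in newly transcribed RNA. Its levels were 8.99, 10.05 and 8.90 in starved and 9.0, 10.19, 9.84 and 9.23 in treated cells in amplified total RNA and 10.01, 9.46, 9.29 and 9.33 in starved and 9.79, 9.25, 8.93 and 9.28 in treated cells in total RNA. Arrays of all kinds overlapped. Sdhb differed by -1.15 ± 0.33 from amplified total RNA (adjusted p = 0.0294) and by -1.13 ± 0.27 from total RNA (adjusted p = 0.00385). Its call against amplified total RNA was lost in 7 of 15 fits that left out a single array, with -0.97 at an adjusted p of 0.0827 without amplified starved array 2.

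Sdhc, a membrane anchor of the complex, spread widely with the array clusters. Its levels were 7.88, 9.93, 9.49 and 7.49 in starved and 7.76, 9.08, 8.78 and 7.24 in treated cells in newly transcribed RNA and 9.43, 10.46 and 8.42 in starved and 9.14, 9.92, 9.93 and 8.15 in treated cells in amplified total RNA. In total RNA they were 9.94, 9.90, 10.18 and 10.13 in starved and 10.14, 10.15, 10.21 and 10.11 in treated cells, all at or above 9.90. Newly transcribed arrays 1 and 4, of cluster 1, were the low ones in both serum conditions. Its difference was -0.90 ± 0.47 from amplified total RNA (adjusted p = 0.242) and -1.64 ± 0.34 from total RNA (adjusted p = 0.00145). Sdha, the flavoprotein that oxidises succinate, had levels of 6.82, 6.11, 6.43 and 6.37 in starved and 6.21, 5.38, 5.53 and 6.70 in treated cells in newly transcribed RNA. It had 6.97, 5.85 and 8.03 in starved and 6.74, 6.42, 5.68 and 7.76 in treated cells in amplified total RNA and 6.33, 6.68, 6.86 and 7.39 in starved and 6.17, 6.94, 6.60 and 7.27 in treated cells in total RNA. The 3 kinds overlapped, and the differences were -0.61 ± 0.36 (adjusted p = 0.308) and -0.59 ± 0.22 (adjusted p = 0.0495). The second was lost in 12 of 16 fits that left out an array, with an adjusted p of 0.102 without total starved array 4.

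Sdhd, the other membrane anchor, stood nearest to 0 of the 4. Its levels were 9.37, 9.93, 9.69 and 9.04 in starved and 8.99, 9.11, 8.90 and 8.96 in treated cells in newly transcribed RNA. In amplified total RNA they were 9.12, 9.17 and 9.68 in starved and 9.04, 9.27, 8.72 and 9.62 in treated cells, and in total RNA 9.64, 9.66, 9.69 and 9.48 in starved and 9.5, 9.67, 9.64 and 9.60 in treated cells. Starved newly transcribed arrays lay on both sides of the range of total RNA, and all treated ones lay below it. The difference was 0.01 ± 0.17 from amplified total RNA (adjusted p = 0.990, 95% interval -0.35 to 0.36) and -0.36 ± 0.11 from total RNA (adjusted p = 0.0169). The sign of the second turned with values as deposited (0.02) and with arrays scaled to the same median (0.06). Timm8b, a chaperone of protein import that starts on the other side of the Sdhd stretch shown above, was lower than in amplified total RNA, with a difference of -1.06 ± 0.28 (adjusted p = 0.0201).

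Complex III, cytochrome c reductase, had the most negative median of the complexes, -2.15, with 5 of 7 genes lower than in amplified total RNA and all 7 differences negative. Whether complexes differ from each other was not tested. Its small accessory subunits were the lowest, with Uqcr11 at -2.67 ± 0.35, Uqcrh, the hinge protein, at -2.34 ± 0.25, Uqcr10 at -2.15 ± 0.29 and Uqcrq at -2.15 ± 0.26, all called. Levels of Uqcr11 were 5.0, 5.88, 5.35 and 4.39 in starved and 4.47, 5.97, 5.75 and 5.45 in treated cells in newly transcribed RNA. They were 8.0, 8.49 and 7.48 in starved and 6.85, 8.72, 8.65 and 7.45 in treated cells in amplified total RNA and 8.31, 9.59, 8.51 and 8.90 in starved and 8.34, 9.25, 8.39 and 8.35 in treated cells in total RNA. The newly transcribed arrays were below all others, and Uqcr11 was 6.38-fold lower than in amplified total RNA (adjusted p = 0.000182) and 10.7-fold lower than in total RNA (adjusted p = 2.83e-07). Uqcrc2, a core protein of the complex, took a middle place between the total RNAs. Its levels were 9.27, 9.31, 8.91 and 9.5 in starved and 9.29, 9.32, 9.14 and 9.06 in treated cells in newly transcribed RNA. They were 10.12, 10.16 and 9.40 in starved and 10.14, 9.95, 10.10 and 9.38 in treated cells in amplified total RNA and 8.55, 8.52, 8.66 and 8.76 in starved and 8.65, 8.68, 8.5 and 8.86 in treated cells in total RNA. All newly transcribed arrays were above all total RNA arrays, and all but newly transcribed starved array 4 were below all amplified arrays. Uqcrc2 was lower than in amplified total RNA, at -0.67 ± 0.16 (adjusted p = 0.0100), and higher than in total RNA, at 0.58 ± 0.09 (adjusted p = 0.000194). The first was not called with a pseudocount of 1 or within cluster 1 alone.

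Complex IV, cytochrome c oxidase, had 9 of 15 genes lower than in amplified total RNA and a median difference of -0.92, or 8 of 10 and -1.62 among genes at or above the median level. Cox7b, a subunit at the membrane, had levels of 6.92, 6.78, 6.43 and 7.60 in starved and 6.78, 7.25, 7.39 and 7.74 in treated cells in newly transcribed RNA. Its levels were 9.53, 9.37 and 8.80 in starved and 9.88, 9.60, 8.88 and 8.68 in treated cells in amplified total RNA and 8.97, 9.26, 8.69 and 8.67 in starved and 9.02, 8.96, 8.53 and 8.57 in treated cells in total RNA. No newly transcribed array reached the others, and Cox7b differed by -2.14 ± 0.24 from amplified total RNA (adjusted p = 6.09e-05). Cox5b, which binds zinc, differed by -1.90 ± 0.32, Cox4i1 by -1.82 ± 0.18, Cox7a2 by -1.81 ± 0.24 and Cox6c by -1.58 ± 0.16, all called. The other probe set of Cox4i1, below the median level, differed by -0.08, and the other probe sets of Cox6c by -0.21 and 0.48. Cox7a2l, which helps join complexes III and IV into supercomplexes, had levels of 8.14, 9.06, 8.70 and 8.78 in starved and 7.93, 9.35, 8.70 and 8.72 in treated cells in newly transcribed RNA. It had 9.82, 9.87 and 9.26 in starved and 9.35, 10.00, 9.49 and 9.07 in treated cells in amplified total RNA and 10.03, 9.61, 9.0 and 9.29 in starved and 9.78, 9.43, 8.78 and 9.19 in treated cells in total RNA. Of the newly transcribed arrays only treated array 2 reached into the amplified range, and the difference of -0.89 ± 0.22 was called (adjusted p = 0.0141), though not within cluster 1 alone.

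Several subunits of complex IV come as isoforms of different tissues, and the array measures some in pairs. Levels of different genes cannot be set against each other on these arrays, so their differences are given. For Cox6a1, the general isoform, the difference from amplified total RNA was -1.18 ± 0.23 (adjusted p = 0.00344), and for Cox6a2, the heart and muscle isoform, -0.92 ± 0.27 (adjusted p = 0.0358). For Cox6b2, known from testis, it was -1.67 ± 0.50 (adjusted p = 0.0366), and for Cox6b1 -0.39 ± 0.17 (adjusted p = 0.159). The calls of Cox6a2 and Cox6b2 were each lost in 8 of 15 fits that left out an array, to adjusted p of 0.0957 and 0.0998 without amplified starved array 2. For Cox7a2 the difference was -1.81 as above and for Cox7a1, the muscle isoform, -0.19 ± 0.10 (adjusted p = 0.252). Cox5a was at -0.08 ± 0.13, Cox8a at 0.08 ± 0.12 and Cox8b, another muscle isoform, at -0.12 ± 0.31, none called. Cox7a1 (4.13 to 4.85), Cox5a (4.21 to 5.06) and Cox8a (4.14 to 4.98) were below the median level on every array. Differences of such dim probe sets are understated on this scale. Further probe sets gave -0.93 and -0.06 for Cox6b2, -0.09 for Cox5a and 0.25 for Cox8b.

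Complex V, the ATP synthase, had 10 of 14 genes lower than in amplified total RNA and 1 higher, with a median difference of -1.36. Atp5e, the epsilon subunit of the central stalk, had levels of 4.77, 5.20, 4.79 and 5.71 in starved and 4.99, 5.38, 5.04 and 5.31 in treated cells in newly transcribed RNA. Its levels were 7.69, 7.93 and 7.25 in starved and 7.14, 8.58, 7.80 and 7.47 in treated cells in amplified total RNA and 8.44, 9.25, 9.08 and 8.47 in starved and 8.40, 9.18, 9.16 and 8.04 in treated cells in total RNA. The newly transcribed arrays lay below all others. Atp5e was 5.8-fold lower than in amplified total RNA, at -2.54 ± 0.22 (adjusted p = 1.38e-05), and 12.2-fold lower than in total RNA, at -3.6 ± 0.20 (adjusted p = 1.21e-08). Atp5o, which joins the catalytic head to the peripheral stalk, differed from amplified total RNA by -2.36 ± 0.25, Atp5mpl, a small membrane subunit, by -2.29 ± 0.28, Atp5k by -1.83 ± 0.22 and Atp5l by -1.71 ± 0.26, all called. The mean level of Atp5k was below the median of all probe sets. The ring that turns with the protons is made of subunit c, of which Atp5g2 differed by -1.36 ± 0.18 (adjusted p = 0.000226) and Atp5g1 by -0.07 ± 0.11 (adjusted p = 0.753). Atp5g1 was below the median level on every array, at 5.13 to 5.85, so its difference may be understated. Probe sets below the median level gave 0.03 for Atp5g2, -0.01 for Atp5g1 and -0.66 for Atp5l.

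Atp5pb and Atp5a1 showed other patterns within complex V. Atp5pb, subunit b of the peripheral stalk, had levels of 6.09, 5.82, 5.66 and 6.15 in starved and 5.81, 5.99, 5.32 and 6.73 in treated cells in newly transcribed RNA. It had 5.42, 4.81 and 5.45 in starved and 4.93, 5.62, 4.70 and 4.56 in treated cells in amplified total RNA and 6.56, 5.03, 5.78 and 5.75 in starved and 6.13, 5.73, 5.47 and 5.77 in treated cells in total RNA. The gene is among the 13 whose mean level was below the median of all probe sets, and the newly transcribed and amplified ranges overlapped. Atp5pb was higher than in amplified total RNA by 0.86 ± 0.22 (adjusted p = 0.0162), and its difference from total RNA was 0.17 ± 0.22 (adjusted p = 0.595). The first was not called within cluster 2 alone. Wdr77, a subunit of the methylosome on the other side of the Atp5pb stretch, was also higher than in amplified total RNA, by 0.95 ± 0.27 (adjusted p = 0.0277), a call lost in 7 of 15 fits that left out an array (0.76, adjusted p = 0.0767, without amplified starved array 2). Atp5a1, the alpha subunit of the catalytic head, had levels of 11.52, 11.14, 11.15 and 11.98 in starved and 11.65, 10.91, 10.76 and 11.92 in treated cells in newly transcribed RNA. It had 11.92, 10.94 and 11.96 in starved and 11.87, 10.89, 10.71 and 11.60 in treated cells in amplified total RNA and 10.82, 10.79, 10.52 and 10.82 in starved and 10.83, 10.58, 10.47 and 10.72 in treated cells in total RNA. Newly transcribed and amplified arrays covered the same range, high on the arrays of cluster 1 and low on those of cluster 2. Its difference was -0.05 ± 0.26 from amplified total RNA (adjusted p = 0.930, 95% interval -0.61 to 0.51) and 0.69 ± 0.17 from total RNA (adjusted p = 0.00558).

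The other divergent pairs gave 4 more comparisons of transcripts from nearby starts, named after their values were seen, and the difference between partners was not tested. Atp5c1, the gamma subunit of complex V, was lower than in amplified total RNA, at -1.43 ± 0.12, and Kin, its divergent neighbour for a DNA-binding protein, was higher, at 1.28 ± 0.39 (adjusted p = 0.0401). The call of Kin was lost in 10 of the 15 fits, with 0.995 at an adjusted p of 0.110 without amplified starved array 2. For Atp5j, coupling factor 6 of complex V, the difference was -1.36 ± 0.17 (adjusted p = 0.000173), and for Gabpa, an ETS family factor, -0.26 ± 0.55 (adjusted p = 0.818). For Ndufb3 it was -1.10 ± 0.17 (adjusted p = 0.000698), and for Fam126b 0.99 ± 0.70 (adjusted p = 0.406). Ndufa7 was lower, at -1.90, and so was its neighbour Rps28, a protein of the small cytosolic ribosomal subunit, at -0.78 ± 0.09 (adjusted p = 0.000106). Genes with and without the NRF1 motif had median differences of -1.36 (9 genes) and -1.16 (49 genes). Those with and without the ETS motif had -1.27 (16 genes) and -1.17 (42 genes), and those with and without the YY1 motif -1.0 (5 genes) and -1.18 (53 genes).

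**Figure D2:**
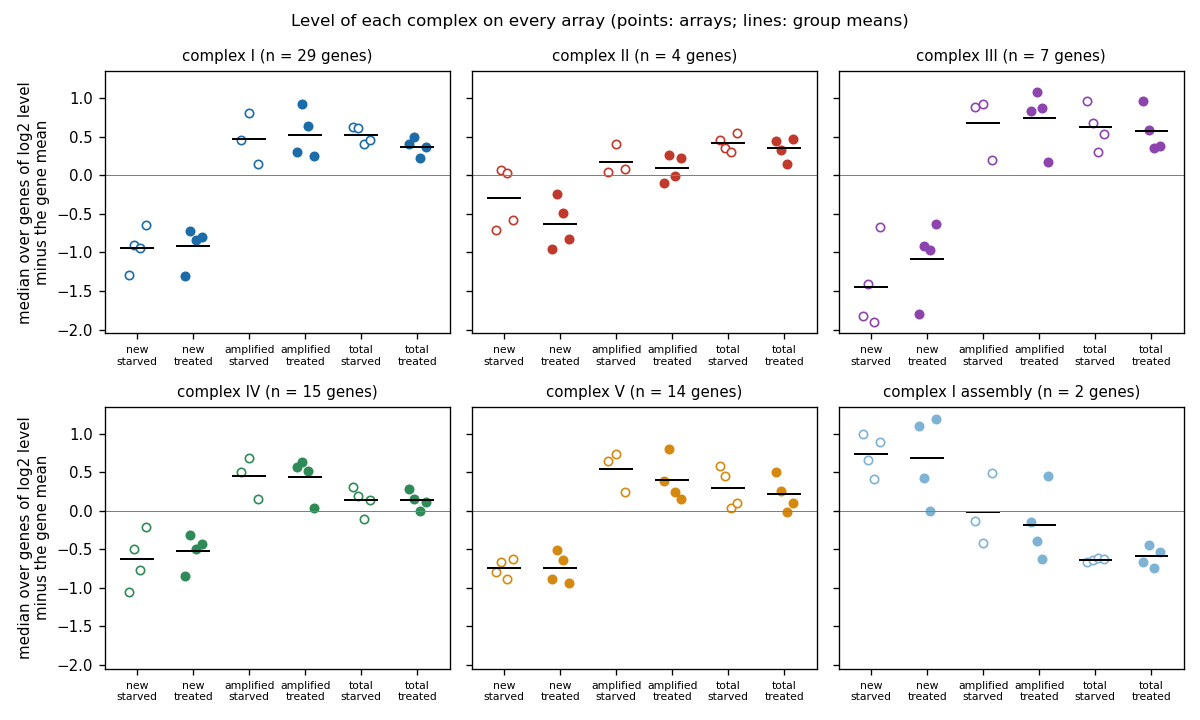
Level of each complex on every array, by group. The vertical axis is the median over its genes of the log2 level minus the gene's mean over the 23 arrays. Open points are starved and filled points treated cells, and lines are group means. The newly transcribed arrays of complexes I, III, IV and V lie below all amplified and total arrays, those of complex II reach into the amplified range, and those of the 2 assembly factors lie above total RNA and overlap the amplified arrays.

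Summed up per array, the pattern was seen in both serum conditions. The median over the 71 genes, each centred on its own mean, was -0.78 ± 0.26 (log2, SD, n = 4) in newly transcribed starved and -0.75 ± 0.27 (n = 4) in newly transcribed treated RNA. It was 0.46 ± 0.28 (n = 3) and 0.45 ± 0.28 (n = 4) in amplified total RNA and 0.38 ± 0.13 (n = 4) and 0.26 ± 0.14 (n = 4) in total RNA. Complex III had the widest gap, from -1.45 ± 0.56 in newly transcribed starved to 0.67 ± 0.41 in amplified starved RNA. In complex II these values were -0.30 ± 0.40 and 0.18 ± 0.20.

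Against total RNA that was not amplified by its title, 50 of the 71 genes were lower in newly transcribed RNA and 4 were higher. Among all probe sets 18.6% were lower and 20.0% higher, and of all genes at or above the median level 27.5% were lower, against 49 of the 58 genes. The median difference was -1.02, against 0.01 over all probe sets, and arrays did not overlap for 41 genes (57.7%), against 15.8% of all probe sets. By complex, 24 of 29 genes of complex I were lower, 4 of 4 of complex II, 5 of 7 of complex III, 8 of 15 of complex IV and 9 of 14 of complex V. The accessory subunits of complex I at the lower end were Ndufb10 at -3.24 ± 0.23, Ndufv3 at -2.99 ± 0.19 and Ndufb6 at -2.93 ± 0.19, and their adjusted p-values were 1.16e-07, 4.23e-08 and 3.95e-08. Ndufa7 followed at -2.49, Ndufb8 at -2.44, Ndufa13 at -2.38, Ndufa3 at -2.11, Ndufa6 at -2.05 and Ndufb7 at -1.79. The acyl carrier protein Ndufab1 was at -1.62, Ndufb11 at -1.60, Ndufb2 at -1.58, the core subunit Ndufv2 at -1.58, Ndufc1 at -1.51 and Ndufa8 at -1.38, all called, while the other probe set of Ndufv2 was at -0.04 (adjusted p = 0.860). Other probe sets above the median level gave -0.49 for Ndufa3 and -2.62 for Ndufb2, both called. Those below it gave 0.004 for Ndufb10, -0.10 for Ndufb6, -0.11 for Ndufb7, and 0.04 and 0.22 for Ndufb2, none called. Ndufa1 had the most positive difference of complex I, 0.17 (adjusted p = 0.335). In complex III Uqcr10 was at -2.40, Uqcrh at -2.37 and Uqcrq at -1.70. In complex IV Cox6b2 was at -3.03 ± 0.39, with its other probe sets at -2.72 and -0.03, Cox5b at -2.34, Cox7a2 at -1.81 and Cox7b at -1.72, and in complex V Atp5mpl was at -1.93, Atp5o at -1.86 and Atp5j at -1.55. Of the isoforms not called, Cox8b was at 0.36 and Cox5a, dim on every array, at 0.03. The 4 higher genes were Ndufaf1, Ndufaf4, Uqcrc2 and Atp5a1, as given above. This comparison shares the 8 newly transcribed arrays with the one against amplified total RNA, so the 2 are not independent, and total RNA also stands apart in the 3′ to 5′ signal of its controls. With values as deposited 32 genes were lower and 4 higher, and 2257 of all probe sets were higher against 1403 lower, where the normalized counts were 2484 and 2308. With arrays scaled to the same median the median of the 71 genes was -0.66, and 2842 of all probe sets were higher against 1964 lower.

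**Figure D3:**
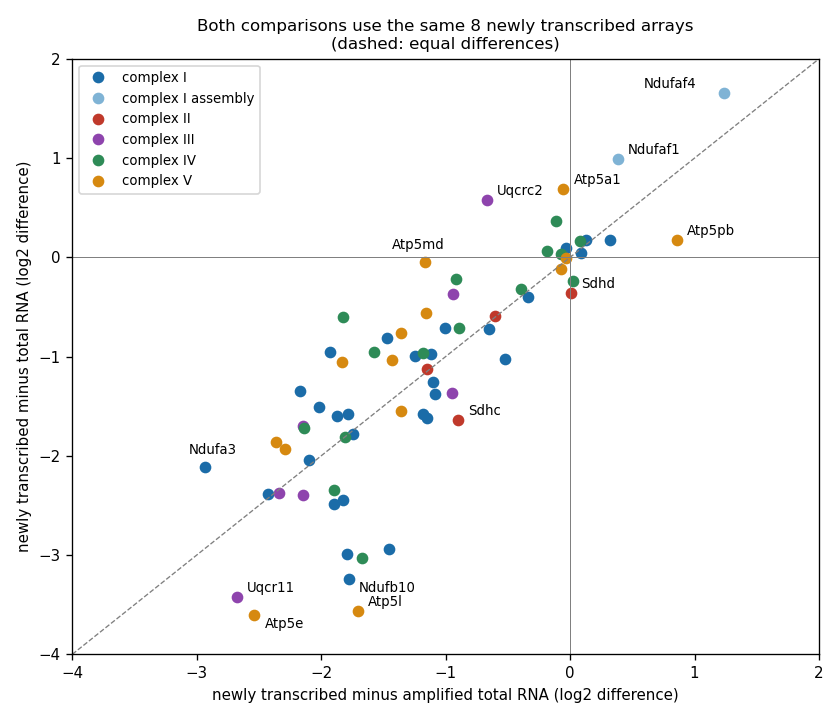
Newly transcribed minus amplified total RNA (horizontal axis) against newly transcribed minus total RNA (vertical axis), both log2 differences, for the 71 genes by complex. Both axes use the same 8 newly transcribed arrays; Atp5e, Atp5l, Uqcr11, Ndufb10 and Cox6b2 lie below -3 on the vertical axis, and Ndufaf4 is the highest on both.

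The size of the difference depended on which total RNA was used for several genes. Atp5l, a membrane subunit of complex V, was at -1.71 from amplified and -3.56 from total RNA, and its difference between amplified and total RNA was -1.86 ± 0.25 (adjusted p = 0.000274). Its other probe set, below the median level, went the other way between the total RNAs, at 0.45 (adjusted p = 0.0317), and was at -0.21 from total RNA without a call. Ndufb6 was at -1.46 and -2.93, with -1.48 ± 0.17 between the total RNAs (adjusted p = 8.17e-05). Its other probe set, below the median level, was at 0.42 between the total RNAs, without a call. Cox4i1 was at -1.82 and -0.60, with 1.23 ± 0.15 (adjusted p = 0.000149), where its other probe set, below the median level, was at -0.06. Uqcrc2 differed between the total RNAs by 1.25 ± 0.15 (adjusted p = 0.000107). Atp5md, a small membrane subunit of complex V also called DAPIT, was at -1.16 and -0.05, with 1.11 ± 0.22 (adjusted p = 0.00334). Between amplified and total RNA, 14 of the 71 genes were higher and 7 lower, where 9.83% and 8.99% of all probe sets were, and the median difference was 0.05. Of complex I, Ndufa5 (0.97), Ndufa2 (0.82), Ndufa3 (0.82) and Ndufb5 (0.65) were higher, and Ndufb10 (-1.47), Ndufv3 (-1.19) and Ndufa7 (-0.59) lower, beside Ndufb6. Ndufaf1 (0.61), Uqcrq (0.45) and Cox6c (0.62) were higher as well. Other probe sets below the median level gave 0.06 for Ndufb10, 0.18 for Ndufaf1, and 0.14 and -0.40 for Cox6c, none called. That of Ndufa3, above the median level, gave 0.82 and was called. Of complex V, Atp5k (0.78), Atp5a1 (0.74), Atp5o (0.51) and Atp5c1 (0.39) were higher, and Atp5e (-1.07) and Atp5pb (-0.69) lower, beside Atp5md, which was higher, and Atp5l, which was lower. The other probe set of Atp5c1 was lower, at -0.51. The calls of Atp5pb, Atp5c1, Atp5k and Ndufa7 were lost in 11 or more of 15 fits that left out an array, that of Uqcrq in 8 (0.40, adjusted p = 0.0798, without total treated array 3), that of Atp5o in 3 and that of Atp5a1 in 2. Without amplified starved array 1 the count of higher genes was 9. Without a call, Cox6b2 was at -1.36 ± 0.55 and Sdhc at -0.73 ± 0.30. Of the other probe sets of Cox6b2, both below the median level, 1 was called lower, at -1.79 (adjusted p = 0.0424), and 1 was at 0.03. With arrays scaled to the same median the counts were 24 higher and 5 lower, while all probe sets went from 1221 higher and 1117 lower to 1584 and 750. With values as deposited they were 1 and 1, and all probe sets 13 and 251.

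The 2 hours of serum changed none of the 71 genes past the threshold in any kind of RNA. In newly transcribed RNA 0 of 71 genes were called and 4 had an unadjusted p below 0.05, where 0% of all probe sets were called. In total RNA 0 were called and 1 had an unadjusted p below 0.05, against 0.121% of all probe sets called. In amplified total RNA 0 were called and 1 had an unadjusted p below 0.05, against 0% of all probe sets. An unadjusted p below 0.05 was reached by 800, 614 and 175 of the 12422 probe sets in newly transcribed, total and amplified total RNA. Starved and treated arrays of the same number paired in newly transcribed and in total RNA, and with the replicate number as a block 1.74% and 0.483% of all probe sets were called, again with 0 of the 71 genes. In the replicate block fits 11 and 6 genes had an unadjusted p below 0.05, where 2691 (21.7%) and 1333 (10.7%) of all probe sets did. The block narrowed the 95% intervals, which lay within 2-fold in either direction for 66 genes in newly transcribed and 71 in total RNA, where 45 and 68 did without it. In amplified total RNA 44 did. The narrower intervals rest on the pairing by array number. Of 18 RNAs known to be short-lived, many of them early serum response genes, 4 were called higher in total RNA and 0 in newly transcribed RNA, and with the replicate block 7 and 8 were. The median response of the 18 was 1.19 there, 1.07 for newly transcribed and 1.16 for amplified total RNA. For the 71 genes a missing call bounds the responses, and does not show that they are 0.

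The median response over the 71 genes was 0.07 in newly transcribed RNA, with 47 responses above 0, -0.11 in total RNA, with 58 below 0, and -0.02 in amplified total RNA, with 39 below 0. Over all probe sets the medians were 0.01, -0.01 and -0.01. With values as deposited they were -0.25, 0.27 and 0.48 for the 71 genes and -0.18, 0.21 and 0.25 for all probe sets, so their signs rest on the scaling. Single responses in newly transcribed RNA ran from -0.68 ± 0.29 for Ndufs1, the largest core subunit of complex I, to 0.63 ± 0.21 for Cox8c, a subunit of complex IV known from testis. The other probe set of Cox8c, below the median level, was at -0.08. In the replicate block fit Ndufs1 was at -0.68 ± 0.14 with an adjusted p of 0.0693, the lowest of the 71. In total RNA single responses ran from -0.42 for Ndufc1 to 0.28 for Ndufa1, both accessory subunits of complex I. The other probe set of Ndufa1 was at -0.06 there, and both of its probe sets were below the median level. In amplified total RNA single responses ran from -0.51 for Ndufb3 to 0.73 for Ndufa13.

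By complex, the medians in newly transcribed RNA were 0.06 for complex I, -0.48 for complex II, 0.14 for complex III, 0.15 for complex IV and 0.05 for complex V. Complex II was the complex with all of its genes below 0, with Sdha at -0.48 ± 0.31, Sdhb at -0.02 ± 0.47, Sdhc at -0.48 ± 0.65 and Sdhd at -0.52 ± 0.20, none called. In the replicate block fit their adjusted p-values were 0.264, 0.969, 0.152 and 0.137. The other complexes ran from Ndufs1 to 0.38 for Ndufb2 (complex I), from -0.16 for Uqcrc1 to 0.55 for Uqcrq (III), from -0.08 for Cox6b1 to Cox8c (IV) and from -0.33 for Atp5c1 to 0.55 for Atp5d (V), with Ndufaf1 at -0.23 and Ndufaf4 at 0.11. In total RNA the extremes outside complex I were -0.25 for Uqcr10 and 0.05 for Uqcrc2, -0.31 for Cox6b2 and 0.19 for Cox8c, -0.25 for Atp5o and 0.02 for Atp5l, and -0.17 and 0.26 for Ndufaf1 and Ndufaf4. In amplified total RNA they were -0.40 for Uqcrb and 0.35 for Uqcr10, -0.27 for Cox8a and 0.53 for Cox6b2, -0.34 for Atp5a1 and 0.30 for Atp5d, and -0.36 and 0.03 for the assembly factors. For complex II, in total RNA the same genes were at -0.07, -0.21, 0.11 and -0.01. No difference between the response in newly transcribed and that in amplified total RNA was called (0% of all probe sets, 201 of them and 0 of the 71 genes with an unadjusted p below 0.05). The same held against total RNA (0% called, unadjusted p below 0.05 for 299 probe sets and for 1 of the 71 genes), and both use the same newly transcribed arrays. The medians over the 71 genes were 0.12 and 0.19. The most extreme differences were -0.67 for Ndufa13 against amplified and 0.70 for Cox5b against total RNA. These differences of responses were wide, with 95% intervals within 2-fold for 17 and 33 of the 71 genes.

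**Figure D4:**
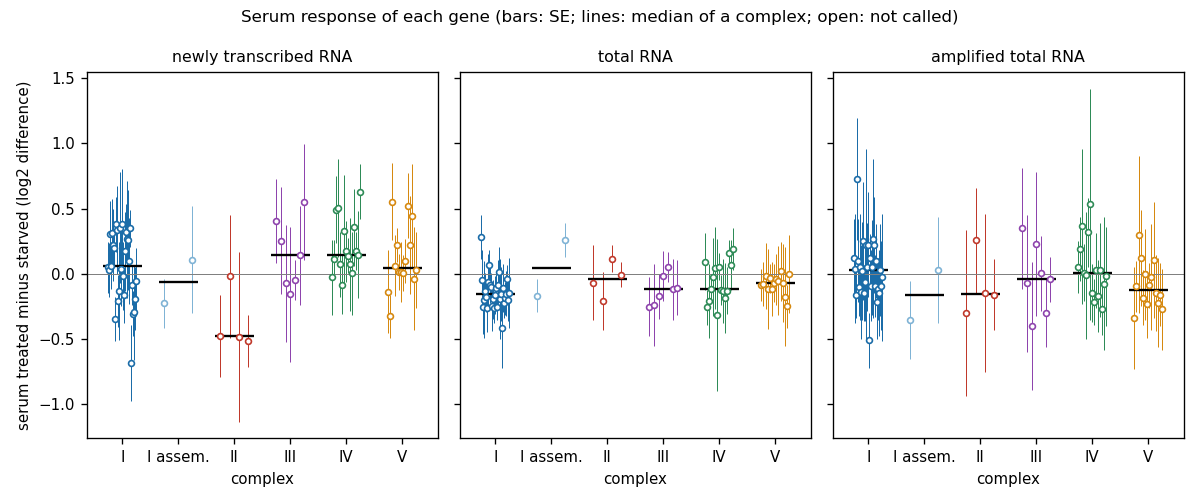
Serum treated minus starved (log2 difference, vertical axis) for each gene by complex, in newly transcribed, total and amplified total RNA. Points are fitted responses with their SE and lines are medians of a complex; no response was called, and the 4 genes of complex II all lie below 0 in newly transcribed RNA.

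Other genes around the respiratory chain were described for the same comparison of newly transcribed and amplified total RNA. Of 14 electron carriers, assembly factors and related genes, 7 were lower and 0 higher, with a median of -0.73. The most negative was Atpif1, the inhibitor of complex V, at -2.27 ± 0.13 (adjusted p = 5.05e-07), followed by Etfb, an electron transfer flavoprotein, at -1.84 ± 0.21. Of 16 genes of pyruvate dehydrogenase and the citric acid cycle, 4 were lower and 0 higher, with a median of -0.47, led by Idh2 at -1.72 ± 0.18. Of 15 genes of mitochondrial import 3 were lower and 1 higher (median 0.22), and of 9 carriers and channels 1 was lower (median -0.30). Mitochondrial ribosomal proteins had 23 of 61 lower and 5 higher (median -0.56), led by Mrpl23 at -2.18 ± 0.25. Cytosolic ribosomal proteins had 16 of 37 lower and 2 higher (median -0.65), led by Rps10 at -1.85 ± 0.33. Proteasome subunits had 5 of 38 lower and 2 higher (median -0.26).

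Regulators of these genes and RNAs known to be short-lived stood on the other side. Of 10 regulators of mitochondrial genes, 4 were higher and 0 lower, with a median of 0.40. They were Pprc1, a coactivator, at 1.36 ± 0.15 (adjusted p = 4.96e-05), Gabpb1, a subunit of the ETS factor NRF2, at 1.10 ± 0.27, Yy1 at 0.89 ± 0.16 and Polg, the mitochondrial DNA polymerase, at 0.84 ± 0.18. Of 18 RNAs known to be short-lived, which check the labelling, 14 were higher and 0 lower, with a median of 1.41, led by Cxcl1, a chemokine, at 2.05 ± 0.49 (adjusted p = 0.0110). Against total RNA the medians were -0.38 for the carriers and assembly factors, -0.26 for the citric acid cycle, 0.74 for the regulators, -0.60 and -0.22 for cytosolic and mitochondrial ribosomal proteins and 1.16 for the short-lived RNAs. No list was tested as a set, so its counts stand beside the shares of all probe sets given above.

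**Figure D5:**
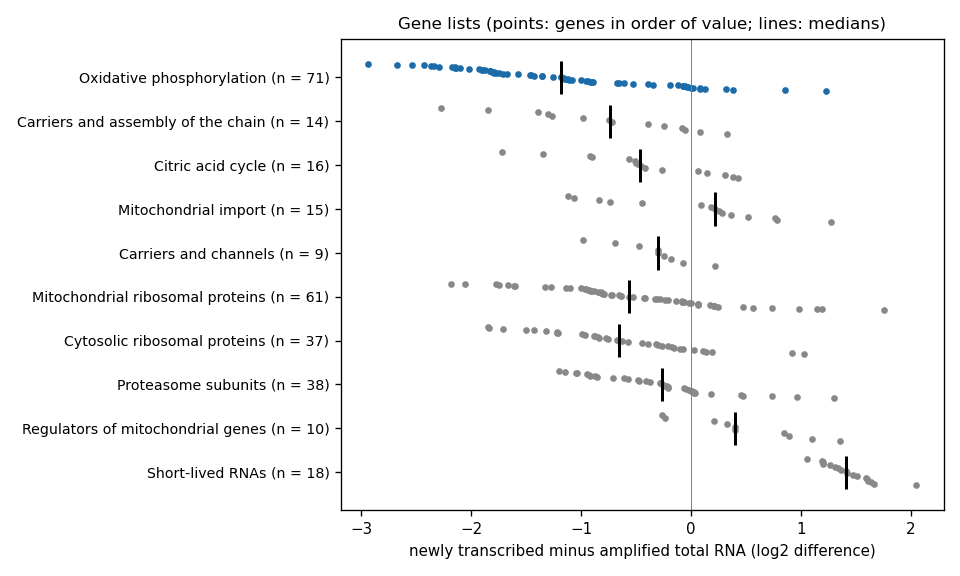
Newly transcribed minus amplified total RNA (log2 difference, horizontal axis) for the 71 oxidative phosphorylation genes and for 9 other lists. Points are genes in order of value and lines are medians, from -1.18 for oxidative phosphorylation to 1.41 for short-lived RNAs.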

How the data were processed

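RNA of 3 kinds from starved and serum-treated fibroblasts was measured on 23 one-colour arrays. The deposited values are linear intensities per probe set. Per the labels' protocols, RNA was reverse-transcribed, amplified and biotin-labelled by a T7 method, and how probes were summarised or scaled is not given in the sources used here. Array medians differed several fold. From the deposited intensities, quantile-normalized log2 values (pseudocount 16) were computed, 66 control probe sets were left out, and 12422 were tested with limma 3.58.1 in R 4.3.3 (group means of the kinds compared, lmFit and eBayes, Benjamini-Hochberg over all probe sets, called at an adjusted p below 0.05). The number of arrays limits the precision. Of the probe sets, 10833 had 1 symbol, 396 several and 1193 none listed, and 10 naming several genes with a member among them were not used. Each comparison between kinds was averaged over the serum conditions. The method was tested on simulated data.

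Members and lists were chosen with earlier results of these data known. The genes named were up to 30 called members of a comparison by size, the extremes of each complex, all of complex II and the isoform pairs, with a called gene of each other list and at most 3 more.

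Array numbers were taken to pair the samples where every same-numbered pair of deviations from the group means correlated above 0.1. Arrays of different numbers were not correlated in this way. The pairing rests on the data, since no label says what arrays of a number have in common. The correlations were 0.70 to 0.80 for starved and treated newly transcribed arrays and 0.23 to 0.70 for total RNA, and these were taken as pairs. Newly transcribed arrays 1 and 4 were in cluster 1 in both serum conditions, and 2 and 3 in cluster 2. For newly transcribed RNA the correlations thus do not tell pairing by number from likeness within a cluster. Newly transcribed and amplified treated arrays correlated at 0.56 to 0.73 and starved ones at 0.37 and 0.68, but array 3 of amplified starved cells correlated at -0.39 with newly transcribed and at -0.47 with amplified treated array 3. Amplified and total RNA correlated at 0.07 to 0.31 and newly transcribed and total RNA at 0.02 to 0.24, so no pairing was assumed for these comparisons.

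Alternatives were values as deposited, scaling to the median, pseudocount 1, leaving out dim probe sets, a variance trend, the mean of a gene's probe sets, all 23 arrays in a fit, the array number or array cluster as a block, and leaving out each array. Fits within each array cluster and block fits without each array number were chosen after seeing the data.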

Additional observations from a re-analysis of the deposited data

Results flagged for a closer look

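In each group of 4 arrays, the 14 genes given array by array and the per-array medians of the 71 genes and of each complex were checked for an array far from the others. In 3 of 105 such groups the gap to the nearest array was over 0.829 of the range, and chance gives about 1 in 20. Ndufaf4 stood at 5.82 (log2) on total treated array 2, where the others were at 5.36 to 5.40. Uqcr11 stood at 9.25 on the same array, where the others were at 8.34 to 8.39. Atp5a1 stood at 10.5 on total starved array 3, below the others at 10.79 to 10.82. All 3 values lie on arrays of total RNA. For these genes, every comparison of newly transcribed with total RNA given above was called with all arrays.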

How the results depend on the processing

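The direction of the main result held in all settings run: newly transcribed RNA had a negative median over the 71 genes against both total RNAs. Its counts rest on bringing the arrays to one scale. With values as deposited, the comparison with amplified total RNA had 0 genes higher and 1 lower, a median of -0.76 and 78 of all probe sets called. That with total RNA had 32 lower and a median of -0.69, and amplified against total RNA 1 higher, 1 lower and 264 probe sets. The medians of the serum responses became -0.25 (newly transcribed), 0.27 (total) and 0.48 (amplified), and those of the differences of responses -0.80 and -0.53, and 2 probe sets were called for serum in total RNA. Scaled to the same median, arrays gave a median of -0.66 against total RNA and 24 genes higher in amplified than in total RNA. Sdhd against total RNA turned to 0.0242 as deposited and 0.0573 scaled to the median. Atp5c1 between amplified and total RNA turned to -0.0602 with the mean of its probe sets. Without dim probe sets, and so with fewer genes, 1 gene was higher than in amplified RNA, the medians were -1.45 and -1.37, and 24 probe sets were called for serum in total RNA, where pseudocount 1 called 7. The cause of the other changes was not tested.

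With all 23 arrays in a fit 30 probe sets were called for serum in newly transcribed and 3 in amplified RNA. With the array cluster as a block 45 were called for serum in newly transcribed RNA and 3819 between newly transcribed and amplified RNA. Of the comparisons with total RNA, only the difference of serum responses was fitted with this block. With the replicate block 216 and 60 probe sets were called for serum in newly transcribed and total RNA. Between kinds of RNA, where not every pair of same-numbered arrays correlated above 0.1, the replicate block called 3498 probe sets and 51 genes lower between newly transcribed and amplified RNA, 51 genes lower against total RNA, and 18 genes higher and 9 lower between amplified and total RNA. For newly transcribed against total RNA, 6198 of all probe sets had an unadjusted p below 0.05 with this block and 5698 without it. Between amplified and total RNA 4564 and 3954 did. For serum, where the numbers were taken to pair, the replicate block called 0 of the 71 genes, as without it.

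Leaving out each array in turn, the genes lower than in amplified RNA numbered 42 to 47 and those lower than in total RNA 48 to 50. In these comparisons 1653 to 2106 and 4404 to 4870 of all probe sets were called in either direction. Genes higher in amplified than in total RNA numbered 9 (without amplified starved array 1) to 15 (without amplified treated array 3). Of all probe sets, 1837 (without total treated array 3) to 2879 (without amplified starved array 2) were called there in either direction. Probe sets called for serum numbered 0 to 1 in newly transcribed RNA and 1 (without total treated array 2) to 19 (without total treated array 1) in total RNA. Dim probe sets, the 13 genes below the median level among them, limit what could be called.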
